A study of Rattus norvegicus with 6 samples.

Results

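The genes of 10 integrin subunits carried by leukocytes, Itgam, Itgal, Itgax, Itgb2, Itga4, Itga5, Itga6, Itgav, Itgb1 and Itgb5, were read out by name from the count tables of LPS-stimulated microglia with and without siponimod. All 10 were among the 23139 genes listed and among the 11977 genes with enough counts to be tested. Microglia, the resident macrophages of the brain, were shaken off cultures of postnatal day 1 Wistar rat cortices, purified on CD11b/c magnetic beads and stimulated from the next day on. One group received 100 ng/mL lipopolysaccharide (LPS, a bacterial cell wall component that activates microglia) with DMSO as the solvent control, hereafter LPS. The other received the same LPS with 50 µM siponimod, a modulator of sphingosine-1-phosphate receptors, hereafter LPS/siponimod. Each group held 3 biological replicates, sequenced as mRNA to between 38080379 and 46643859 counts per library. LPS was present in both groups, and cells without LPS were not analysed here, so that the values below set LPS with siponimod against LPS alone. The beads bind the products of Itgam and Itgax, and sorting took place before stimulation in both groups. The libraries are bulk samples, in which fewer cells of a type and less RNA per cell cannot be told apart.

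Integrins are pairs of an α and a β subunit that span the membrane and tie the actin cytoskeleton to matrix proteins or to receptors on other cells. The β2 integrins are found on leukocytes only. They include αLβ2 (LFA-1), αMβ2 (CD11b/CD18, complement receptor 3) and αXβ2 (CD11c/CD18), and they serve adhesion and the uptake of complement-coated particles. The α4, α5 and α6 subunits pair with β1 to bind VCAM-1 and fibronectin, fibronectin, and laminin, respectively. The αv subunit pairs with β1, β5 and others to bind vitronectin, osteopontin or latent TGF-β. In microglia, αMβ2 is a defining surface protein.

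Before the integrins, the libraries were checked against markers. Cd68, a lysosomal protein of macrophages, was counted at 1075 ± 337 CPM (counts normalized for library size, mean ± SD, n = 3) with LPS and 1076 ± 259 CPM with LPS/siponimod. Ptprc, the common leukocyte antigen CD45, was at 526 ± 124 and 519 ± 102 CPM. Of 13 tested microglial markers, 3 were lower with LPS/siponimod (Aif1, Cx3cr1 and Gpr34), 1 was higher (Sall1) and 9 were not called. Cd68 and Ptprc had the smallest changes of these markers. The median log2 fold change of the list, LPS/siponimod against LPS, was -1.38, with 9 markers negative and 4 positive. Summed over the microglial list, the level was 8782, 6941 and 4141 CPM in LPS replicates 1, 2 and 3 and 3647, 4568 and 2500 CPM in the LPS/siponimod replicates, with Csf1r as its most abundant gene. LPS replicate 3 stood apart from LPS replicates 1 and 2, since its log CPM correlated with theirs at 0.935 and 0.945 over genes, against 0.983 between the other two. It also had more counts of some genes of other lineages. Olig1, of the oligodendrocyte lineage, had 1, 5 and 515 counts in LPS replicates 1, 2 and 3 against 2, 3 and 17 in the LPS/siponimod replicates, and the neuronal gene Map2 had 0, 3 and 162 against 1, 1 and 115. The oligodendrocyte list as a whole, dominated by Cnp, summed to 150, 136 and 149 CPM with LPS and 49.2, 67.8 and 60.0 CPM with LPS/siponimod, 2 of its 4 tested genes being called (Mbp higher, Cnp lower). The neuron list, led by Tubb3, summed to 1.70, 1.09 and 12.3 CPM against 6.39, 9.28 and 17.3 CPM, with 1 of 2 tested genes called (Snap25, higher). Astrocyte markers, led by Slc1a3, summed to 48.4, 24.4 and 27.6 CPM against 29.4, 28.8 and 61.1 CPM, and 1 of 4 tested genes was called (Aldoc, lower). Fibroblast and mural markers summed to between 3.98 and 11.9 CPM in any library, with Dcn the 1 called (higher) of 5 tested and Rgs5 without a count. Endothelial markers, led by Cdh5, summed to 167, 214 and 93.5 CPM against 39.6, 83.9 and 28.2 CPM with Flt1 lower among 4 tested, while Kdr had no count. Among lymphocyte and granulocyte genes, Cd3e, Cd3g, Mpo, Elane, Cd177 and Cpa3 had no count in any library. The T and NK list lay between 11.2 and 24.0 CPM, with Klrb1a the 1 called (higher) of 4 tested, and the neutrophil and mast cell list stayed at or below 0.951 CPM with none called of 1 tested. The B cell list, nearly all Cd79b, read 16.1, 60.8 and 30.8 CPM against 0.904, 22.1 and 1.02 CPM, with none called of 1 tested. Of the genes of border-associated macrophages, 1 of 4 tested was called (Mrc1, lower), and the sum, led by Siglec1, was 3299, 2293 and 1311 CPM against 954, 1122 and 769 CPM. The part of these other cells in the integrin values was not tested.

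Of the 10 integrin genes, 3 were lower with LPS/siponimod (Itgam, Itgal and Itgb2), 2 were higher (Itga4 and Itgav) and 5 were not called (Itgb5, Itga5, Itgax, Itga6 and Itgb1). Calls required a change of at least 1.5-fold and, by the quasi-likelihood test of edgeR over all 11977 genes, an adjusted p not above 0.05. By this rule 25.3% of all genes tested were called, 13.6% higher and 11.7% lower. The median log2 fold change (FC, LPS/siponimod against LPS) of the 10 genes was -0.75, against -0.02 for all genes. The groups did not overlap for 6 of the 10, the 5 called genes and Itgb5, and this was so for 49.3% of all genes tested. The calls depended on single libraries. None of the 10 was called lower without LPS replicate 2, without LPS/siponimod replicate 1 or without LPS/siponimod replicate 3, and 1 was called higher without LPS replicate 1, without LPS replicate 2 or without LPS/siponimod replicate 1. Calls over all genes also fell. In the former 3 fits 182 of 12613, 191 of 12583 and 273 of 12178 genes were lower, against 1403 of 11977 with all libraries. In the latter 3 fits 1099, 469 and 592 genes were higher, against 1633. Without LPS replicate 3, 3 were lower and 2 higher, but Itgb2 lost its call (adjusted p = 0.0545) and Itgb5 gained one (0.0322). Over all genes 1772 were then lower and 1941 higher. In the fit blocked by replicate number, 5 were lower and 2 higher, beside 16.4% and 17.7% of all genes. With 3 libraries against 3, an exact permutation test of a single gene cannot go below p = 0.10, so that the adjusted p-values rest on the spread that edgeR estimates across genes.

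**Figure D1:**
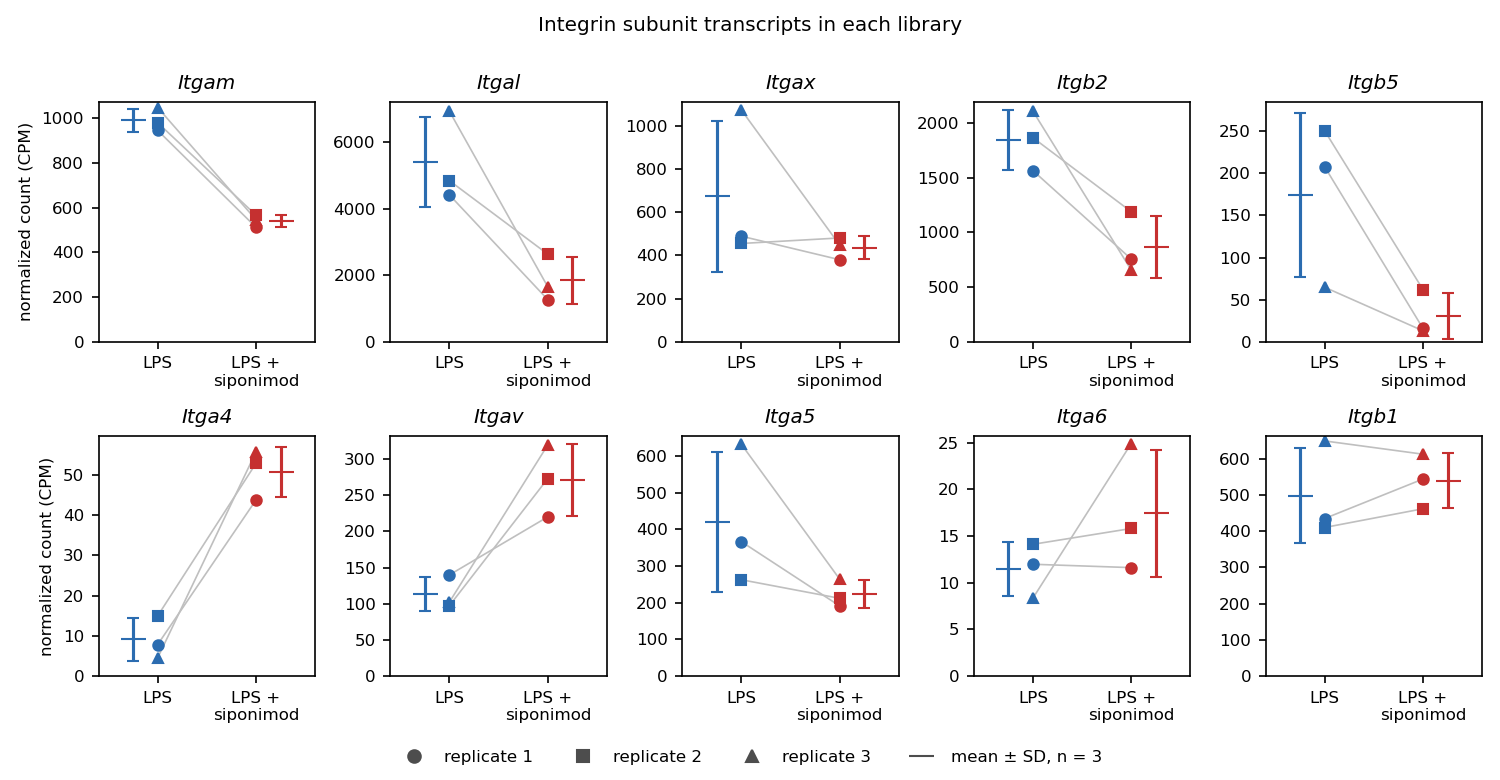
Normalized count (CPM, y axis from 0) of each integrin subunit gene in the 3 LPS (blue) and 3 LPS/siponimod (red) libraries, with the mean ± SD beside the points and grey lines joining libraries with the same replicate number. Itgam, Itgal, Itgb2 and Itgb5 lie lower and Itga4 and Itgav higher in every LPS/siponimod library than in any LPS library.

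Itgam encodes αM, the CD11b chain. It was counted at 946, 980 and 1048 CPM in LPS replicates 1, 2 and 3 and at 512, 566 and 546 CPM in the LPS/siponimod replicates. The libraries within each group lay closer together than for any other of the 10 genes, with a largest-to-smallest ratio of 1.11 in both groups. Itgam fell 1.83-fold (log2 FC -0.87 with a standard error of 0.14, adjusted p = 0.0112). Its difference was -0.89, -0.79 and -0.94 in the 3 pairs of same-numbered libraries. The adjusted p passed 0.05 when a single library was left out, namely LPS replicate 2 (0.0536), LPS/siponimod replicate 1 (0.0618) or LPS/siponimod replicate 3 (0.0532), while the fitted log2 FC stayed between -0.91 and -0.83.

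The promoter of Itgam is shown because this gene marks the cell type and fell with the smallest spread. The sequence is from RefSeq (GRCr8, + strand) and runs from 250 bases before to 50 bases after the annotated start. Capitals mark the PU box GAGGAA, read on either strand, the core bound by the myeloid factor PU.1.
Itgam: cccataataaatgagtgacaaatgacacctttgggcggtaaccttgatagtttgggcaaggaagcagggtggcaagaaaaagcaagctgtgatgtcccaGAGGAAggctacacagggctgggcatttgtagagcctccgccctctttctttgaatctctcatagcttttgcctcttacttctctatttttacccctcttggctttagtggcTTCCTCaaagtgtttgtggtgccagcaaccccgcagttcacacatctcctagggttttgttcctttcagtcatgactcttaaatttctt
The first match begins 151 bases before the start and the second, on the opposite strand, 39 bases before it. A RUNX match (TGTGGT) begins 25 bases before the start, and neither overlaps the other. Promoters of 7 of the 10 genes (not Itgal, Itgb2 and Itga6) were matched by symbol, and 4 of them (Itgam, Itgav, Itga5 and Itgb1) held a PU box, which was found in 27.6% of all 33469 promoters of this length. A match is a string of letters and not a shown binding site.

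Itgal encodes αL, the chain that makes LFA-1, the receptor for ICAM-1. Its level was 4411, 4839 and 6924 CPM with LPS against 1266, 2632 and 1652 CPM with LPS/siponimod. All LPS libraries exceeded all LPS/siponimod libraries, of which replicate 2 was the highest. The change was a 2.91-fold fall (log2 FC -1.54, standard error 0.35, adjusted p = 0.0247). Itgal was no longer called without LPS replicate 2 (adjusted p = 0.0747), LPS/siponimod replicate 1 (0.0931) or LPS/siponimod replicate 3 (0.0922).

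Itgb2 encodes CD18, the β chain that αL, αM and αX all need to reach the surface. Levels were 1565, 1866 and 2109 CPM with LPS and 756, 1189 and 656 CPM with LPS/siponimod. LPS/siponimod replicate 2 was again the highest of its group and still below all LPS libraries. Itgb2 fell 2.13-fold (log2 FC -1.09, standard error 0.28, adjusted p = 0.0331). This call held in 1 of 6 fits that left out a library, the one without LPS/siponimod replicate 2 (0.0147). The adjusted p was 0.0566, 0.104 and 0.0545 without LPS replicates 1, 2 and 3, and 0.135 and 0.107 without LPS/siponimod replicates 1 and 3.

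Itgax encodes αX, the CD11c chain of dendritic cells and activated microglia. It had 489, 455 and 1073 CPM with LPS and 380, 480 and 448 CPM with LPS/siponimod. LPS replicate 3 stood far above the other 5 libraries, which overlapped between the groups. The log2 FC was -0.62 (95% interval -1.50 to 0.25, adjusted p = 0.228), and without LPS replicate 3 it was -0.11 (adjusted p = 0.624).

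Itga4 encodes α4, which forms the VCAM-1 and fibronectin receptor VLA-4 with β1. The LPS replicates held 290, 576 and 167 raw counts and the LPS/siponimod replicates 2034, 2361 and 2285, or 7.83, 15.0 and 4.50 against 43.8, 52.9 and 55.7 CPM. The LPS libraries spread over 3.33-fold and the LPS/siponimod libraries over 1.27-fold, with no overlap. Itga4 rose 5.58-fold (log2 FC 2.48, standard error 0.43, adjusted p = 0.0130). Its adjusted p was 0.0512 without LPS replicate 1 and 0.0519 without LPS/siponimod replicate 1, at log2 FCs of 2.39 and 2.57. The RefSeq table of another assembly (GRCr8) has the span of Itga4 overlap that of Cerkl, a ceramide kinase-like gene, on the opposite strand. Cerkl had 72, 163 and 53 counts in the LPS replicates against 490, 714 and 592 after LPS/siponimod (log2 FC 2.43, adjusted p = 0.0144). Whether reads were assigned by strand is not stated, so that reads from the shared stretch cannot be told apart. In the same table the span of Itgb2 overlaps 1 lncRNA gene, that of Itgav 2 lncRNA genes and that of Itgb1 1 other protein-coding gene, and the same limit holds for these 3 genes.

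Itgav encodes αv, the chain that recognises RGD motifs in vitronectin, osteopontin and the latency peptide of TGF-β. Levels were 140, 97.3 and 102 CPM with LPS and 220, 273 and 320 CPM with LPS/siponimod. The lowest LPS/siponimod library lay above the highest LPS library. Itgav rose 2.39-fold (log2 FC 1.26, standard error 0.21, adjusted p = 0.0120). It stayed called in 5 of 6 fits with a library left out, the exception being LPS replicate 2 (adjusted p = 0.0615).

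The promoters of both genes that rose are printed for comparison with that of Itgam, in the same window (RefSeq, GRCr8, both on the + strand) and with PU boxes in capitals.
Itga4: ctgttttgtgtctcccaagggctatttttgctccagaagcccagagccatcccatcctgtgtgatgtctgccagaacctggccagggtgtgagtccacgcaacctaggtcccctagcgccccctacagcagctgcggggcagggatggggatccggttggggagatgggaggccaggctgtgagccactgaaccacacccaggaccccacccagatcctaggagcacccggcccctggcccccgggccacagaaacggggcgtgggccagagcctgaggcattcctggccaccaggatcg
Itgav: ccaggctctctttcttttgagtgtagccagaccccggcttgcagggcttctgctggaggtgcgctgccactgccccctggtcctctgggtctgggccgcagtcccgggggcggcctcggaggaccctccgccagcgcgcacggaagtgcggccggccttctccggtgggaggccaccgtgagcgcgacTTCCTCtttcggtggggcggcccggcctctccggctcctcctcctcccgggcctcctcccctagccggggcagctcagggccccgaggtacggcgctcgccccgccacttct
The window of Itga4 had no PU box, and that of Itgav had 1, beginning 62 bases before the start on the opposite strand. G and C made up 64.7% of the Itga4 window, 72.7% of the Itgav window and 46.3% of the Itgam window. The GC box GGGCGG, read on either strand, occurred in 4 of the 7 matched promoters (Itgam, Itgav, Itga5 and Itgb1), against 33.1% of all. RUNX letters occurred in Itgam and Itga4, against 17.3%, the AP-1 letters TGANTCA in Itgax, against 7.33%, and the C/EBP-ATF element TGATGNAA in none of the 7, against 3.98%.

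Itgb5 encodes β5, the partner of αv in a vitronectin receptor used for the uptake of dying cells. It was counted at 208, 250 and 64.8 CPM with LPS and 15.9, 62.0 and 13.1 CPM with LPS/siponimod. LPS replicate 3 was the lowest of its group and LPS/siponimod replicate 2 the highest of its own, so that the groups nearly touched. The log2 FC of -2.52 was the most negative of the 10 genes and carried the largest standard error (0.78), and Itgb5 was not called (adjusted p = 0.0551). Within pairs the difference was -3.70, -2.01 and -2.30. Libraries with the same number deviated together, and with the replicate number as a block Itgb5 was called (log2 FC -2.67, adjusted p = 0.00913), as it was without LPS replicate 3 (-2.92, 0.0322) or LPS/siponimod replicate 2 (-3.60, 0.0221). DESeq2, limma-voom and the likelihood ratio test also called Itgb5 lower, at adjusted p-values of 0.00182, 0.0406 and 0.00538.

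Itga5 encodes α5, the fibronectin receptor chain. Its levels were 367, 263 and 633 CPM with LPS against 191, 212 and 265 CPM with LPS/siponimod. Each pair went down, but LPS/siponimod replicate 3 reached the level of LPS replicate 2. The log2 FC was -0.92 (95% interval -1.74 to -0.09, adjusted p = 0.0882), it was -0.50 (0.138) without LPS replicate 3, and with the replicate block Itga5 was called (-0.84, adjusted p = 0.0386).

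Itga6 and Itgb1 were not called. Itga6, which encodes the laminin receptor chain α6, had 11.98, 14.1 and 8.34 CPM with LPS and 11.6, 15.8 and 24.9 CPM with LPS/siponimod. LPS/siponimod replicates 2 and 3 lay above the LPS range and replicate 1 inside it, and the log2 FC of 0.60 had a 95% interval from -0.20 to 1.41 (adjusted p = 0.210). With a library left out, the log2 FC of Itga6 ranged from 0.26 (without LPS/siponimod replicate 3) to 0.82 (without LPS/siponimod replicate 1). Itgb1, the β1 chain shared by α4, α5, α6 and αv, read 435, 410 and 649 CPM against 544, 462 and 612 CPM. The groups overlapped throughout, and the log2 FC of 0.12 had a 95% interval from -0.44 to 0.67 (adjusted p = 0.730). With a library left out, the log2 FC of Itgb1 ranged from 0.011 (without LPS replicate 2) to 0.36 (without LPS replicate 3).

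**Figure D2:**
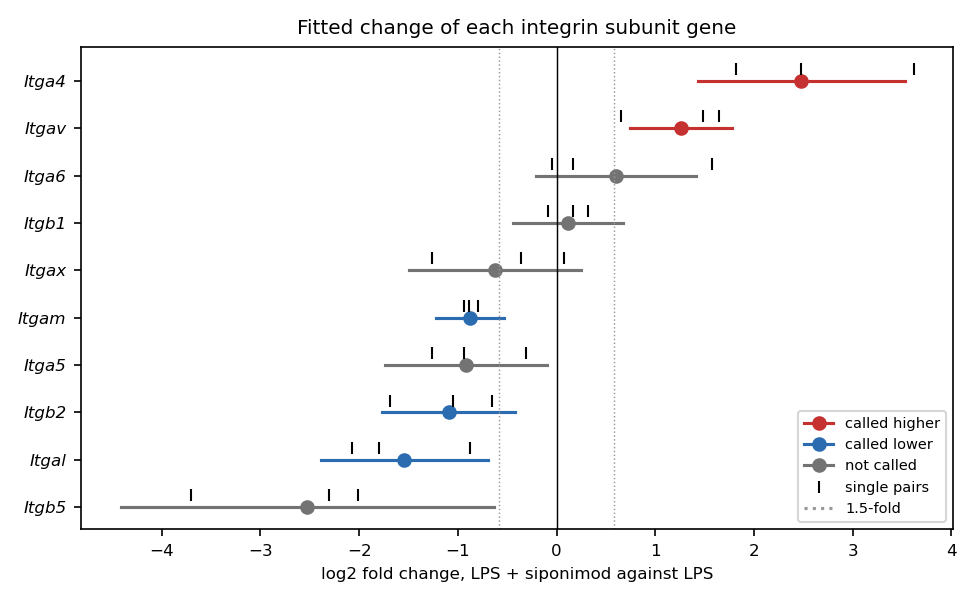
Log2 fold change of each integrin gene (x axis, LPS/siponimod against LPS) with its 95% interval from edgeR's quasi-likelihood fit (red called higher, blue called lower, grey not called), and the differences within single pairs as black ticks. Dotted lines mark a 1.5-fold change. Itgam has the narrowest spread of the pairs and Itgb5 the widest interval.

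Because α and β chains reach the surface as pairs, the ratio of the α count to the β count was taken in each library for 8 known pairs. Gene length cancels when such a ratio is compared between libraries, but the ratio does not give the relative amount of both chains within one. The count of Itgav relative to Itgb5 was 0.673, 0.389 and 1.58 in the LPS replicates and 13.8, 4.41 and 24.5 in the LPS/siponimod replicates. This is a 15.3-fold difference of the geometric means (3.94 on the log2 scale) without overlap, the αv gene having risen and the β5 gene having the lower values given above. Without LPS/siponimod replicate 2 the log2 difference was 4.63. The ratio of Itgav to Itgb1 went from 0.322, 0.238 and 0.158 to 0.405, 0.592 and 0.522, and that of Itga4 to Itgb1 from 0.0180, 0.0365 and 0.00693 to 0.0805, 0.115 and 0.0910. For the latter the log2 difference was 2.51, and 1.88 without LPS replicate 3. For Itga5 over Itgb1 the values were 0.844, 0.641 and 0.975 against 0.352, 0.459 and 0.432. The groups are thus apart for this ratio (log2 difference -0.97), although they overlapped for Itga5 itself. Within the β2 family, Itgal over Itgb2 was 2.82, 2.59 and 3.28 against 1.68, 2.21 and 2.52 (log2 difference -0.45), whereas Itgam over Itgb2 (0.26) and Itgax over Itgb2 (0.61) overlapped between groups. Within same-numbered pairs, however, Itgax over Itgb2 rose each time, from 0.312, 0.244 and 0.509 to 0.502, 0.404 and 0.684. Itgam over Itgb2 fell in pair 2 (0.525 to 0.476) and rose in the others. Itga6 over Itgb1 overlapped between groups as well (0.43) and rose in pair 3 only. Ratios of other gene pairs were not taken for comparison, and 49.3% of all genes tested singly did not overlap. Since Itgb1 had a log2 FC of 0.12, the ratios of Itga4 (2.51) and Itgav (1.13) to Itgb1 largely repeat the changes of Itga4 (2.48) and Itgav (1.26). For the 5 ratios without overlap the two-sided exact permutation p was 0.10, the smallest that 3 against 3 can give. It was 0.16 after Benjamini-Hochberg adjustment over the 8 ratios, so that none can pass 0.05 by this test. The permutation did not use the replicate numbers, and the differences within pairs were not tested.

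**Figure D3:**
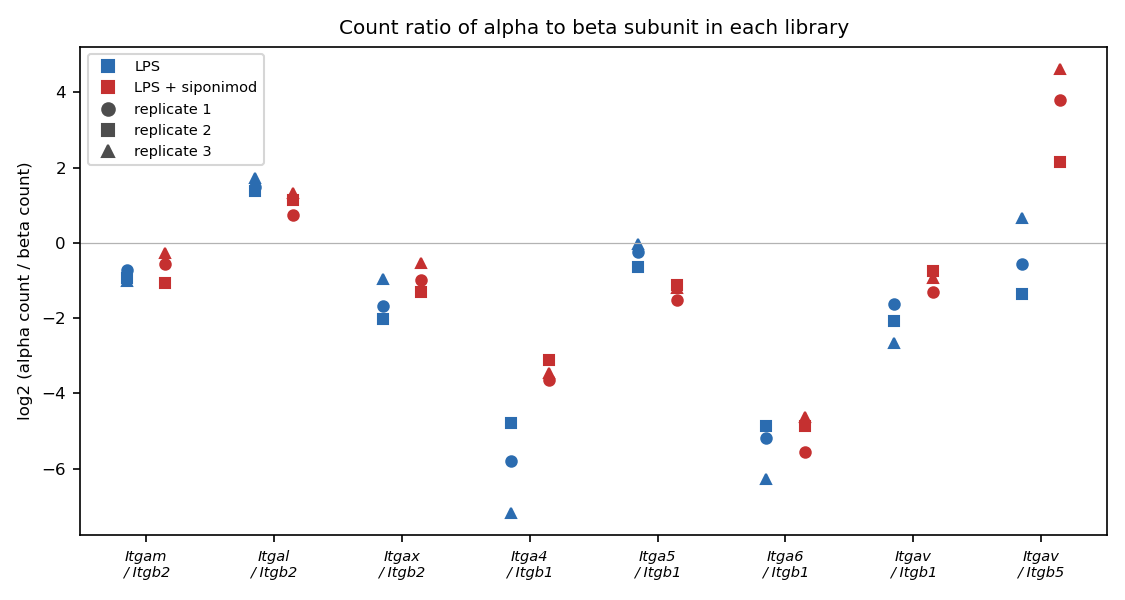
Log2 of the count ratio of an α to a β subunit gene (y axis) for 8 known pairs (x axis) in each LPS (blue) and LPS/siponimod (red) library, with one symbol per replicate number. The ratio of Itgav to Itgb5 shows the largest separation of the groups, and Itga4, Itga5 and Itgav over Itgb1 and Itgal over Itgb2 are also separated. Of all genes tested singly 49.3% did not overlap, and other gene pairs were not compared.

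The likeness of expression patterns was measured as the root-mean-square difference of centred log2 CPM over the 6 libraries, a description that reads both the group difference and the spread within groups. Among the 10 genes the closest were Itgax and Itga5 (0.23), both with their highest level in LPS replicate 3, then Itgam and Itgb2 (0.28) and Itgal and Itgb2 (0.30). Over all genes tested, the closest to Itgam were Ndufb3 (0.035), Abr (0.039) and Timm10b (0.050). Itgal was closest to Fnbp1 (0.084), Maf (0.086) and Arhgap12 (0.098), and Itgb2 to AABR07040412.1 (0.070), Arhgap25 (0.087) and Zfp819 (0.088). For the genes that rose, Itga4 lay nearest to Cerkl (0.15), Fosb (0.20) and Styk1 (0.22), and Itgav to Eif4ebp1 (0.11), Acsl3 (0.15) and Vsig10 (0.16). Cerkl and Itga4 may share reads, as given above. Fosb had 4, 10 and 3 counts in the LPS replicates against 49, 59 and 60 in the LPS/siponimod replicates. Styk1 had 1, 4 and 0 against 17, 16 and 27. Clec4a3 (0.17), Dtnb (0.18) and Pik3cd (0.19) were nearest to Itgb5, and Cnbp (0.034), Jmjd6 (0.036) and Fam133b (0.047) to Itgb1. The nearest to Itgax were Cdca5 (0.078), Pced1a (0.097) and Pde3b (0.11), to Itga5 Gca (0.14), Socs1 (0.16) and Ccne2 (0.17), and to Itga6 Sall3 (0.15), Hebp2 (0.18) and Fkbp4 (0.19). Some of these genes had few counts, among them Zfp819 (19 to 55 per library) and Cdca5 (26 to 61), and their likeness is less precise.

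The genes around the integrins were read from 10 lists of other subunits, activators, inhibitors, signalling genes, ligands and partners. The tables list 154 such genes. Among the 124 with enough counts, 11 (8.87%) were called higher and 27 (21.8%) called lower, against 13.6% and 11.7% of all genes. Their median log2 FC was -0.27. With the replicate block 22 (17.7%) were higher and 32 (25.8%) lower, against 17.7% and 16.4% of all genes, so that the share of higher calls was below that of all genes in the unblocked fit only. These numbers depended on single libraries, since without LPS replicate 2 they were 4 and 0, without LPS/siponimod replicate 1 they were 5 and 3, without LPS/siponimod replicate 3 likewise 5 and 3, and without LPS replicate 1 they were 8 and 7. Calls over all genes fell in the same fits, in this order to 469 and 182, 592 and 191, 762 and 273, and 1099 and 644. With all libraries they were 1633 and 1403. Without LPS replicate 2 no list below had a lower call, and without LPS replicate 1, LPS/siponimod replicate 1 or LPS/siponimod replicate 3 no list had more than 2.

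Among the other subunits, Itgad, which encodes αD of the β2 family, had 54, 91 and 68 counts in the LPS replicates and 5, 15 and 4 after LPS/siponimod (log2 FC -3.36, adjusted p = 0.0127). Itgae and Itgb7, which encode both chains of the E-cadherin receptor αEβ7, were lower as well, at 51, 97 and 42 against 11, 17 and 3 counts (log2 FC -2.84, adjusted p = 0.0256) and at 66, 99 and 80 against 7, 25 and 15 counts (-2.59, 0.0179). Itgad stayed called in 4 of 6 fits with a library left out (adjusted p up to 0.0716). Itgae and Itgb7 stayed called in 2 of 6 each (up to 0.119 and 0.0858). The log2 FC of Itgad ranged from -4.16 (without LPS/siponimod replicate 2) to -3.07 (without LPS/siponimod replicate 3). All 3 had few counts, and no LPS/siponimod library reached the lowest LPS library. Such a lower position without overlap was found for 24.0% of all genes tested. Of 6 other α and 4 other β subunits tested these 3 were called, all lower. Of all genes tested 25.3% were called, 11.7% lower. The β3 gene Itgb3, another partner of αv, had 209, 215 and 482 counts against 531, 758 and 1195 and was not called (log2 FC 1.25, adjusted p = 0.0953), but it was called higher without LPS replicate 3 (1.78, 0.0317). With the replicate block 6 other subunits were called, since Itgb3 (1.26, 0.00867) and the α3 gene Itga3 (3.34, 0.00689) were then higher and the α9 gene Itga9 (-2.69, 0.0130) lower. Of all genes 17.7% were higher and 16.4% lower with the block. The unblocked log2 FCs of Itga3 and Itga9 were 3.65 and -2.19 (adjusted p = 0.0571 and 0.0909). Itga3 had 46, 42 and 338 counts with LPS/siponimod, and its log2 FC was 1.84 without LPS/siponimod replicate 3 (adjusted p = 0.154). Itga9 was called lower without LPS/siponimod replicate 2 (-3.69, 0.00902).

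Integrins are switched on from inside the cell when talin and kindlin bind the β tail, a step driven by the GTPase Rap1. Of 16 activators tested 3 were lower, 1 was higher and 12 were not called, with a median log2 FC of -0.49 (with the replicate block, 5 lower and 2 higher). The talin gene Tln1 (log2 FC 0.02, adjusted p = 0.954) and the leukocyte kindlin gene Fermt3 (-0.45, 0.115) were not called. Rap1b fell from 1792 ± 200 to 883 ± 153 CPM (log2 FC -1.02, adjusted p = 0.0171), Fyb1, which encodes the adaptor ADAP, from 781 ± 88.5 to 242 ± 108 CPM (-1.69, 0.0166) and the GTPase gene Rras from 79.6 ± 10.3 to 48.6 ± 4.91 CPM (-0.71, 0.0178). Cyth2, a cytohesin gene, was the 1 that rose (log2 FC 0.70, adjusted p = 0.0175). Of 8 inhibitors tested 2 were higher and 2 lower (median -0.16). Those higher were Flna, which encodes filamin A, a competitor of talin at the β tail (365 ± 112 to 980 ± 113 CPM, log2 FC 1.43, adjusted p = 0.0147), and Itgb1bp1, which encodes the β1 tail binding protein ICAP-1 (0.86, 0.0182). Sipa1 (-1.25, 0.0173) and Rap1gap2 (-1.57, 0.0262), whose products inactivate Rap1, were lower.

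Bound integrins signal through Src and Syk family kinases, Pyk2 or focal adhesion kinase, and Vav exchange factors. Of 24 such genes 10 were lower, none was higher and 14 were not called, with a median log2 FC of -0.82 (with the replicate block, 12 lower and 1 higher). The lower calls in this list were 0 without LPS replicate 2 and 1 without LPS replicate 1, LPS/siponimod replicate 1 or LPS/siponimod replicate 3, and 11 without LPS replicate 3 or LPS/siponimod replicate 2. Over all genes the lower calls in these fits were, in the same order, 182, then 644, 191 and 273, then 1772 and 1462. With all libraries they were 1403. The smallest p-values belonged to Vav2 (log2 FC -1.29, adjusted p = 0.0125), the Src family kinase gene Fgr (-1.45, 0.0171), the Pyk2 gene Ptk2b (474 ± 81.3 to 251 ± 32.0 CPM, -0.92, 0.0191) and Vav3 (-1.46, 0.0266). Lyn, a further Src family gene, was also lower (log2 FC -0.86, adjusted p = 0.0369). Syk was not called (-0.97, 0.0543), and the focal adhesion kinase gene Ptk2 had a log2 FC of 0.21 (adjusted p = 0.195).

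In the list of proteins that join integrins to actin, 6 of 23 were higher, 4 were lower and 13 were not called (median 0.34). With the replicate block 8 were higher and 4 lower. The higher calls were 2 without LPS replicate 2 or LPS/siponimod replicate 1 and 3 without LPS/siponimod replicate 3. Over all genes 469, 592 and 762 were higher in these fits, against 1633 with all libraries. Higher were, by p-value, Lpp (log2 FC 1.37, adjusted p = 0.00684), the integrin-linked kinase gene Ilk (45.1 ± 8.66 to 120 ± 18.2 CPM, 1.41, 0.00815), the α-actinin gene Actn4 (1.17, 0.0125) and Tns2, a tensin gene (0.66, 0.0170). The paxillin gene Pxn (-1.13, 0.0225), Trip6 (-1.08, 0.0113), and the actin polymerisation genes Evl (331 ± 129 to 37.1 ± 32.1 CPM, -3.16, 0.0243) and Vasp (-1.05, 0.0368) were lower. The log2 FC of Evl was -4.14 without LPS/siponimod replicate 2. Evl stayed called in 3 of 6 fits with a library left out (adjusted p up to 0.0855). Vasp was not called without LPS replicate 3 (adjusted p = 0.0563).

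Among ligands on cells 2 of 9 tested were lower, Icam5 (log2 FC -1.63, adjusted p = 0.0160) and Thy1 (-2.10, 0.0383), both at few counts, and 7 were not called (list median -0.50). Icam1, which encodes a ligand of αLβ2 and αMβ2, was at 176 ± 20.2 CPM with LPS and 154 ± 24.5 CPM with LPS/siponimod (-0.20, 0.398). Of 17 matrix and soluble ligands tested 1 was higher and 1 lower, with 15 not called (list median 0.30). With the replicate block 4 were higher and 1 lower. Spp1, which encodes osteopontin, a ligand of αv and α4 integrins, had 68108, 43678 and 48067 counts in the LPS replicates and 497757, 607511 and 1174984 in the LPS/siponimod replicates. All LPS/siponimod libraries were far above the LPS range, a 12.4-fold rise (log2 FC 3.63, standard error 0.49, adjusted p = 0.00769). C3, whose fragment iC3b is bound by αMβ2 and αXβ2, fell 3.33-fold from 55230, 53458 and 37440 to 16547, 25899 and 9457 counts (log2 FC -1.74, standard error 0.37, adjusted p = 0.0211), and it stayed called in 2 of 6 fits with a library left out. Of 7 genes of the latent TGF-β axis 1 was lower and 6 were not called (list median -0.61), while with the block 1 was lower and 1 higher. The gene that was lower was Nrros, whose product tethers latent TGF-β1 to the microglial surface, where αv integrins release it (168 ± 18.9 to 75.7 ± 22.8 CPM, -1.15, 0.0187), while Tgfb1 itself was not called (-0.27, 0.329). Among 10 membrane partners 1 was higher, 1 lower and 8 not called (list median -0.06), and with the block 2 were higher. Slc3a2, which encodes the CD98 heavy chain, rose 4.35-fold (log2 FC 2.12, adjusted p = 0.00705), and Cd47 fell 2.04-fold (-1.03, 0.0337). Cd47 was not called without LPS replicate 3 (-0.86, 0.0552), and 2 partners were then higher. The losses were not tied to that library, since Thy1 was called in 0 of 6 fits with a library left out (adjusted p up to 0.159) and Cd47 and Vasp in 1 of 6 each (up to 0.118 and 0.142). Of the 30 genes called in these lists and named here by the smallest p-values, Ilk, Lpp, Slc3a2 and Spp1 stayed called in all 6 fits with a library left out, and the 26 others lost the call in at least 1 fit. The median over the 30 genes was 3 of 6 fits.

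**Figure D4:**
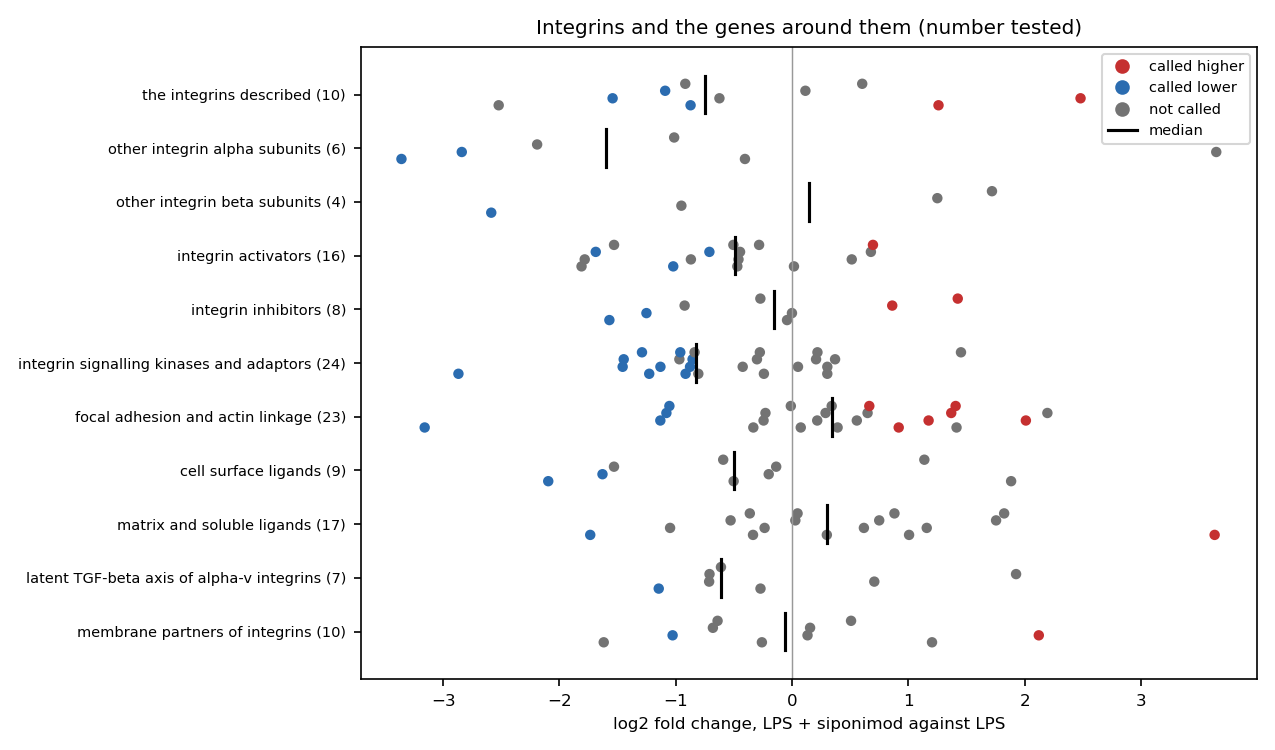
Log2 fold change (x axis, LPS/siponimod against LPS) of every tested gene in the integrins described and in 10 lists of genes around them (y axis, number tested in brackets), coloured as called higher (red), called lower (blue) or not called (grey), with the list median as a black bar. Signalling kinases and adaptors hold 10 called genes, all lower (0 to 11 with a library left out, where 182 to 1772 of all genes were lower). The far right point among the matrix and soluble ligands is Spp1 at 3.63.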

How the data were processed

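The authors converted reads with bcl2fastq (version 2.20.0.422, also in the submitters' processing notes), trimmed the single-end reads and mapped them to the rat genome (mRatBN7.2) in the CLC Genomics Workbench, and deposited raw total counts per gene, 1 table for each of the 6 libraries. How multiply matching reads and strand were treated is not given in the sources used here. One table ended in 1 row without a name or a value, which was left out. Promoter sequences came from RefSeq (GRCr8), another build than that of the counts, and were joined by symbol only. The stimulation time of these libraries is not given separately from that of other assays.

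The counts entered edgeR (version 4.0.16, under R version 4.3.3) with filterByExpr (minimum count 10, minimum total 15), TMM normalization (factors 0.939 to 1.056) and glmQLFit with glmQLFTest, the condition being the only term. Benjamini-Hochberg adjustment ran over all 11977 genes tested. Calls required at least a 1.5-fold change at an adjusted p no larger than 0.05. The standard error is the size of the log2 FC divided by the square root of the F statistic. Within-pair differences used a prior count of 2. The α to β count ratios were compared by exact permutation tests, and repeating them with a library left out was chosen after seeing the data. Alternatives were RLE, DESeq2 (version 1.42.0), limma-voom (limma version 3.58.1), edgeR's likelihood ratio test, 2 other filters (no filter beyond 1 count, a mean of at least 1 CPM), the replicate block and each library left out. Procedures were tested on simulated data, from which no value is given here. No gene lengths were used, and the levels of the integrin genes were not compared with each other. The most abundant gene of a marker list is the one with the highest CPM, which reads gene length as well as level.

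Replicates of both conditions carry the numbers 1 to 3. Deviations from the group means correlated at 0.42, 0.545 and 0.611 between same-numbered libraries, and between -0.534 and 0.0856 otherwise, so that the numbers were taken to pair the libraries, on these values and not on a label. Deviations cancel within each group by construction, so that the values otherwise are not independent of those between same-numbered libraries.

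The 10 genes, the lists and the tests were chosen with earlier results of these data known. Named are the 10 genes, up to 4 called genes per list and direction with the smallest p-values, the 3 genes nearest to each of the 10, and the cell type markers. Tln1, Fermt3, Lyn, Syk, Ptk2, Itgb3, Itga3, Itga9, Icam1 and Tgfb1 were added after their values were seen.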

Additional observations from a re-analysis of the deposited data

How the results depend on the processing

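None of the 10 integrin genes and none of the 30 named genes around them changed direction under any alternative run. The number of integrin genes called higher was 2 throughout, except for 1 to 2 with a library left out. Those called lower were 5 instead of 3 with DESeq2, with the likelihood ratio test and with the replicate block, where Itgb5 and Itga5 were added, 4 with limma-voom, where Itgb5 was added, and 0 to 4 with a library left out. Of the genes around the integrins, 18 were higher with DESeq2, 17 with the likelihood ratio test and 22 with the replicate block, against 11, and 4 to 14 were higher and 0 to 30 lower with a library left out. Over all genes, 1633 were higher and 1403 lower, against 469 to 1941 and 182 to 1772 with a library left out, the fewest without LPS replicate 2. With the replicate block these numbers were 2114 and 1960. The block changed no call among the other 8 integrin genes or the 30 named genes. The cause of the calls added by DESeq2, the likelihood ratio test and the block was not tested. RLE and DESeq2 left the median log2 FC of all genes at -0.018 and -0.005. The lowest count of any of the 10 genes in any library was 167 (Itga4, LPS replicate 3), and having 3 libraries per condition limits the precision of every value.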
